A study of Mus musculus with 16 samples.

Results

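Cathepsins are the proteases of the lysosome. The 10 lysosomal cathepsin genes Ctsl, Ctsb, Ctsd, Ctsh, Ctss, Ctsk, Ctsz, Ctsc, Ctsa and Ctsf were taken by gene symbol from a table of 21923 genes, and all 10 were found there once. Their mRNA was followed in the gastrocnemius, a calf muscle, of 16 mice with 1 library per mouse. Between NOR and CAC mice 1 of the 10 genes rose (Ctsl) and 1 fell (Ctsk), beside 4.32% and 5.13% of all 14666 genes tested.

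The study compared muscle wasting in tumor-bearing mice with and without amiloride, and with tumors altered in Rab27. NOR mice were injected with PBS only. CAC mice carried unmodified tumors and received PBS daily from day 9. AM mice carried the same tumors and received amiloride at 2 mg/kg daily from day 9. KD mice were injected with tumor cells in which Rab27 had been knocked down. Both KD and NOR mice received PBS daily from day 9. Each group held 4 mice, namely 2 C57BL/6 mice (replicates 1 and 2) and 2 BALB/c mice (replicates 3 and 4). The mice were 6 to 8 weeks old when purchased. In the 3 tumor-bearing groups the C57BL/6 mice received LLC lung carcinoma cells and the BALB/c mice CT26 colon carcinoma cells. Muscles were taken on day 30. The knock-down was made in the tumor cells by lentiviral shRNA, not in the muscle. Strain and tumor line changed together, so their parts cannot be told apart.

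Most cathepsins are cysteine proteases (Ctsl, Ctsb, Ctsh, Ctss, Ctsk, Ctsz, Ctsc and Ctsf), while Ctsd encodes an aspartic protease and Ctsa a serine carboxypeptidase. They are made as inactive precursors, are sorted to the lysosome and are activated in its acid lumen, where they break down proteins delivered by autophagy and endocytosis. Ctsl mRNA is a long-known marker of skeletal muscle atrophy, Ctss serves antigen presentation in macrophages, dendritic cells and B cells, and Ctsk degrades collagen and is known from osteoclasts and fibroblasts.

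The sequences in front of the genes are shown because many lysosomal genes carry the letters CACGTG, to which TFEB, a regulator of lysosomal genes, can bind, and because Ctsl and Ctsk are the members the results turn on. For these, matches to the letters TTGCNNAA, a form read by C/EBP factors, are shown as a description only. RefSeq promoter windows (GRCm38.p6) run from 250 bases before to 50 bases after a gene's start and existed for 8 of the 10 genes, with 2 windows for Ctsa. Both strands were searched. CACGTG was in the windows of 4 of these 8 genes (Ctsl, Ctsd, Ctsa and Ctsf) and in 7.15% of all 32851 windows. The stretches below are read 5′ to 3′ on the gene's strand, and the capitals mark the match.
Ctsl, chr13:64370741-64370766, minus strand: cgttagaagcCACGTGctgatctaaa
Ctsd, chr7:142388057-142388077, minus strand: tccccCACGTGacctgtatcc
Ctsd, chr7:142387910-142387935, minus strand: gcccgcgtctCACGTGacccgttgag
Ctsa, chr2:164833751-164833772, plus strand: agcaaactgtCACGTGatgcag
Ctsf, chr19:4855076-4855101, plus strand: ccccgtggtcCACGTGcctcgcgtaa
Ctsl, chr13:64370617-64370644, minus strand: aaaccacgggTTATGCAActctccaccc
Ctsk, chr3:95499124-95499151, plus strand: tatacacacaTTGTGCAAatgtgtgtcc

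The first base of the CACGTG match lay 236 bases before the RefSeq start in Ctsl, 245 and 98 bases before it in Ctsd, 12 bases before it in Ctsa and 79 bases before it in Ctsf. Ctsa held 1 more match, which began 5 bases after its start and is not shown. The longer form TCACGTGA, which contains CACGTG, was in 0.974% of all windows and in those of Ctsd and Ctsa. TTGCNNAA was in 10.8% of all windows and in 2 of the 9 windows of these genes, those of Ctsl and Ctsk, whose mRNA differed between CAC and NOR in opposite directions. The matches shown lay 114 bases before the start in Ctsl and 76 bases before it in Ctsk, both in the reverse orientation. Ctsk held 1 more match, which began 24 bases after its start and is not shown. All bases of the Ctsa stretch and of the second Ctsd stretch, and 13 bases of the first Ctsl stretch, lie in exons that GENCODE M21 gives to some transcript. The other stretches lie outside annotated exons. Neither GTAAACA, a FoxO site (3.65% of all windows), nor TGANTCA, an AP-1 site (7.81%), was in any of the 9 windows of these genes. Such matches describe letters in a short window and do not show binding.

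The libraries held 35913190 to 61032708 counts on genes, and a member had at least 220 counts (Ctsk in KD 2) and at most 49258 (Ctsd in CAC 3). Levels of 1 gene across mice are given as CPM, counts scaled to the library's size, after TMM normalization of all 16 libraries. Levels of different genes are compared as FPKM, the authors' value per length. All skeletal muscle markers were abundant in all libraries, with a summed level of 54098 to 176830 CPM over 8 genes. The lowest sums were those of CAC 3 (54098 CPM) and CAC 4 (81301 CPM), against at least 124730 CPM in NOR mice. In 5 libraries (NOR 1, CAC 1, CAC 4, KD 2 and KD 3) the 8 B cell markers summed to only 0.596 to 3.65 CPM, against 40.2 to 522 CPM in the other 11. Their summed T cell markers were likewise low, at 0.949 to 2.09 against 17.9 to 180 CPM. Between CAC and NOR mice 4 of 8 neutrophil, 5 of 6 erythroid and 1 of 6 endothelial markers rose, 4 of 8 fibroblast markers fell, and none of the muscle, macrophage, B cell, T cell or adipocyte markers passed edgeR's test. In AM vs. CAC 4 fibroblast markers rose, and in KD vs. CAC no marker passed. KD 3 had no counts on the 4 Y-linked genes checked, and it is labelled as a BALB/c mouse, a strain for which the labels name both male and female animals.

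Per length, Ctsd, whose aspartic protease cuts proteins inside the chain, was the highest of the family in every library, with a mean of 362 FPKM. Ctsb followed at 108 FPKM, then Ctsl at 79.5, Ctsa at 63.0, Ctsz at 62.9, Ctss at 34.0, Ctsh at 32.0, Ctsc at 28.9, Ctsf at 18.2 and Ctsk at 10.6 FPKM. This order was not the same in each mouse. Ctsl ranked between 2 and 5, Ctss between 5 and 10, and only Ctsd kept 1 rank. Neighbours in the order, such as Ctsa and Ctsz or Ctss and Ctsh, overlapped in their values over the 16 mice. Ctsd and Ctsb together made up 46.1% (AM 1) to 69.4% (KD 3) of the family's summed FPKM. The share of Ctsl in that sum averaged 7.13% in NOR mice, 13.9% in CAC mice, 9.65% in AM mice and 8.40% in KD mice, and it was 24.4% in CAC 4.

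**Figure D1:**
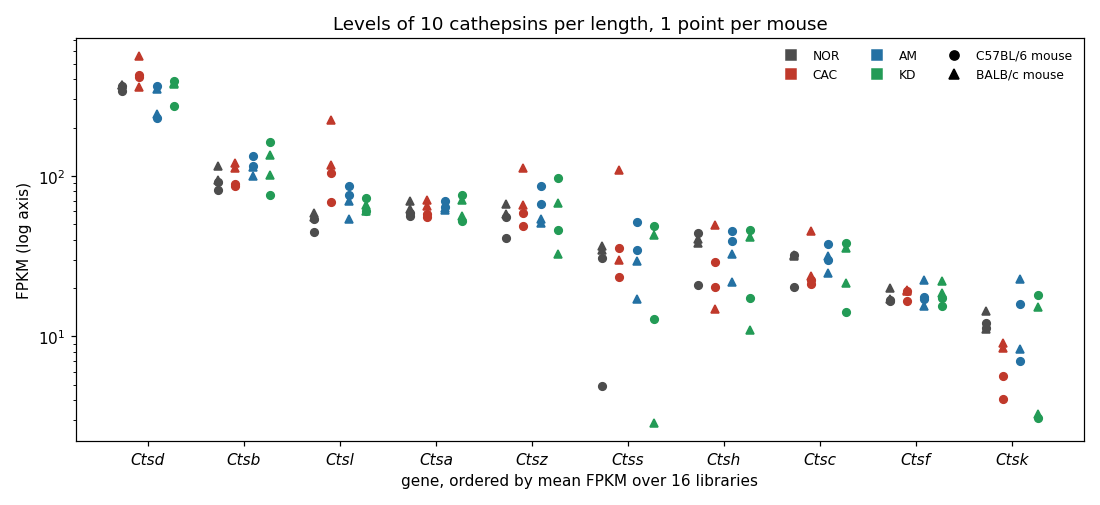
FPKM (log axis) of each cathepsin in each mouse, with genes ordered by their mean over 16 libraries, colors for groups and symbols for strains. Ctsd lies on top in all mice, and Ctss and Ctsk spread most, with Ctss between 2.90 and 109 FPKM.

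Ctsl encodes the cysteine endopeptidase cathepsin L. Its level was 104.5, 108.8, 122.3 and 113.6 CPM in NOR mice 1 to 4 and 224.7, 143.0, 194.9 and 435.1 CPM in CAC mice 1 to 4. Every CAC mouse lay above every NOR mouse, and CAC 4 stood far above the other CAC mice. The sum of muscle markers was low in CAC 4, while CAC 3, with a lower sum, had less Ctsl than CAC 1. The fitted log2 fold change CAC vs. NOR was 1.15 ± 0.31 (SE, n = 4 mice per group), which is 2.22-fold with a 95% interval of 1.37 to 3.59 (edgeR's quasi-likelihood F test, FDR = 0.0408). The two-sided exact permutation test on CPM gave p = 0.0286, the smallest p possible with 4 against 4 mice.

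The size of this difference depended on single mice, and over 22 alternative analyses the FDR ran from 0.00208 to 0.217. Without CAC 4 the log2 fold change was 0.74 (edgeR, FDR = 0.0254). The call was lost when any NOR mouse or CAC 1 was left out, though the log2 fold change then stayed at 1.13 to 1.20. The edgeR FDR was 0.0908 without NOR 1, 0.106 without NOR 2, 0.0934 without NOR 3, 0.0855 without NOR 4 and 0.0734 without CAC 1. It was 0.79 in C57BL/6 mice alone (edgeR, FDR = 0.160) and 1.43 in BALB/c mice alone (edgeR, FDR = 0.217). CAC 1 and CAC 4, the highest CAC mice for Ctsl, were also the CAC libraries with few B cell markers. Without the 5 libraries low in those markers the log2 fold change was 0.59 (edgeR, FDR = 0.12), a fit of 2 CAC against 3 NOR mice, and with the summed B cell markers as a term it was 0.90 (edgeR, FDR = 0.0690). Ctsl passed in neither. The part of these markers in the Ctsl result was not tested beyond this, and that of the muscle markers was not tested.

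In AM mice Ctsl was at 158.5, 157.3, 142.3 and 114.6 CPM, and in KD mice at 130.3, 145.6, 141.3 and 131.7 CPM. KD mice thus lay close together, near the lowest CAC mouse (143.0 CPM). AM mice spread more, and AM 4 lay well below that CAC mouse. The log2 fold change was -0.79 ± 0.31 for AM vs. CAC (SE, edgeR, FDR = 0.181) and -0.87 ± 0.31 for KD vs. CAC (SE, edgeR, FDR = 0.370). Neither passed the test, and their 95% intervals ran from -1.50 to -0.08 and from -1.58 to -0.15. Both comparisons use the same CAC mice and rest largely on CAC 4, without which the log2 fold changes were -0.39 and -0.45. Against NOR, Ctsl was 0.36 ± 0.12 higher in AM mice (log2, SE, edgeR, FDR = 0.523) and 0.29 ± 0.10 higher in KD mice (log2, SE, edgeR, FDR = 0.999). Every KD mouse and 3 AM mice lay above every NOR mouse, and AM 4 lay within the NOR range. In mean CPM the order was CAC at 249 ± 128, AM at 143 ± 20.5, KD at 137 ± 7.43 and NOR at 112 ± 7.63 (SD, n = 4), of which AM and KD overlapped.

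**Figure D2:**
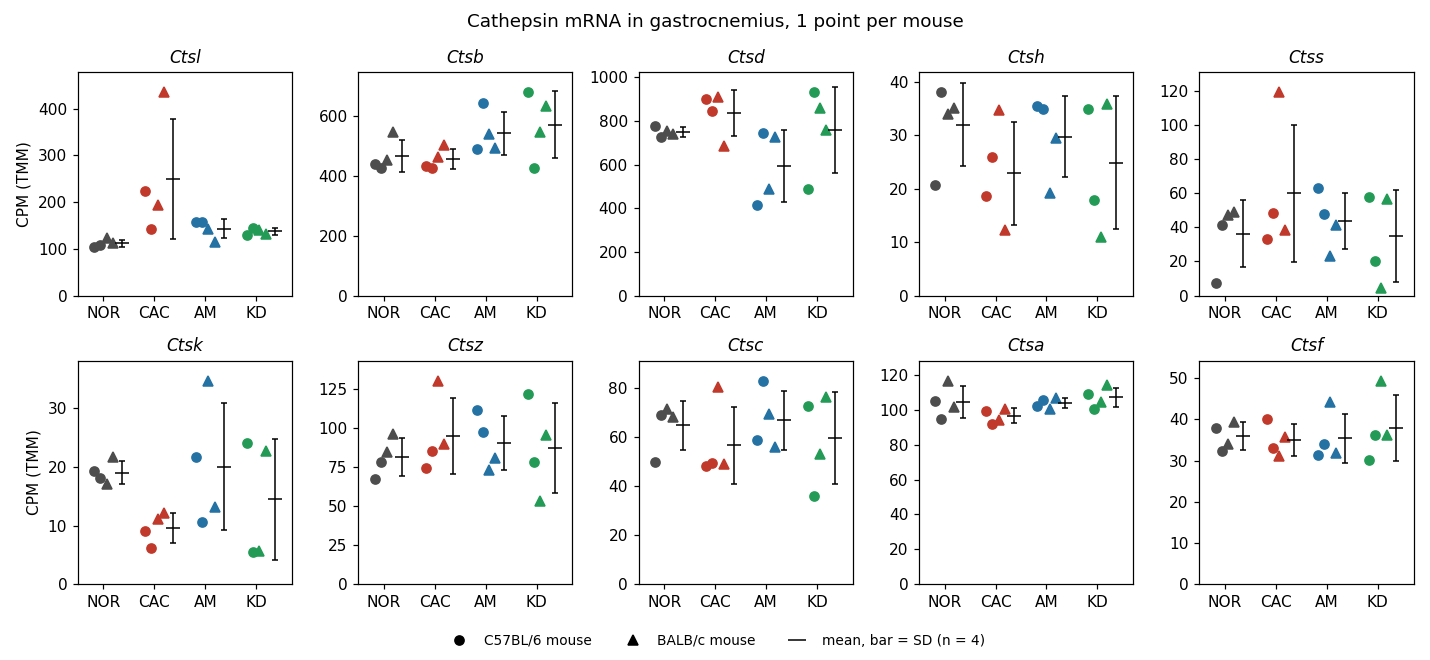
Level of each cathepsin in CPM for every mouse, by group (NOR, CAC, AM, KD), with circles for C57BL/6 and triangles for BALB/c mice and the mean and SD at the right of each group. Ctsl lies above all NOR values in all 4 CAC mice, Ctsk below them, and the other genes overlap between these groups.

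Ctsk encodes cathepsin K, a collagen-degrading cysteine protease. Its level was 19.2, 18.0, 17.0 and 21.6 CPM in NOR mice and 9.0, 6.2, 11.1 and 12.1 CPM in CAC mice. The groups did not overlap. The log2 fold change CAC vs. NOR was -0.98 ± 0.21 (SE, n = 4 per group), 0.507-fold with a 95% interval of 0.364 to 0.706 (edgeR, FDR = 0.0199, exact permutation p = 0.0286). The direction was the same in C57BL/6 mice (-1.29, edgeR, FDR = 0.0799) and BALB/c mice (-0.71, edgeR, FDR = 0.211). Over the 22 alternatives the FDR ran from 0.000228 to 0.212. The call was lost without NOR 2 (-1.01, edgeR, FDR = 0.0503) or CAC 1 (-0.94, edgeR, FDR = 0.0559) and with total-count scaling (-0.84, edgeR, FDR = 0.0578). It was also lost in a fit of all 16 libraries (-0.98, edgeR, FDR = 0.212) and without the 5 libraries low in B cell markers (-1.08, edgeR, FDR = 0.10).

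In AM mice Ctsk was at 21.7, 10.7, 34.6 and 13.1 CPM, and in KD mice at 24.1, 5.5, 5.6 and 22.6 CPM. AM mice therefore reached from the CAC range to above the NOR range, and KD mice fell into a high pair and a low pair. The log2 fold change was 1.06 ± 0.38 for AM vs. CAC (SE, edgeR, FDR = 0.149) and 0.59 ± 0.53 for KD vs. CAC (SE, edgeR, FDR = 0.759). Single mice moved both values, to 0.67 in AM vs. CAC without AM 3, and in KD vs. CAC to 0.22 without KD 1 and 0.28 without KD 4. Without the libraries low in B cell markers, which include the low KD pair, KD vs. CAC was 1.40 (edgeR, FDR = 0.213). Neither passed edgeR's test, while DESeq2 called Ctsk higher in AM than in CAC mice (log2 fold change 1.08, FDR = 0.0460, the lowest of 22 alternatives that reached up to 0.470). Fibroblast markers were also lower in the libraries with the least Ctsk, though not in step with it. The sum of 8 of them was 3130 to 4047 CPM in NOR, 937 to 1507 in CAC, 2374 to 3419 in AM, and 1086 and 899.8 CPM in KD 2 and KD 3, the KD mice with little Ctsk. AM 2 and AM 4, with Ctsk at or near the CAC range, had sums of 2374 and 3040 CPM, above every CAC mouse. None of the 8 was at 0 in any library, and 4 of them fell in CAC vs. NOR. Dcn, at 624 to 1049 CPM in CAC and 920 to 1005 CPM in NOR mice, and Pdgfra, at 34.2 to 68.6 and 58.1 to 68.8 CPM, overlapped between these groups. Their part in the Ctsk result was not tested, and in bulk RNA fewer cells of a type and less RNA per cell cannot be told apart.

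**Figure D3:**
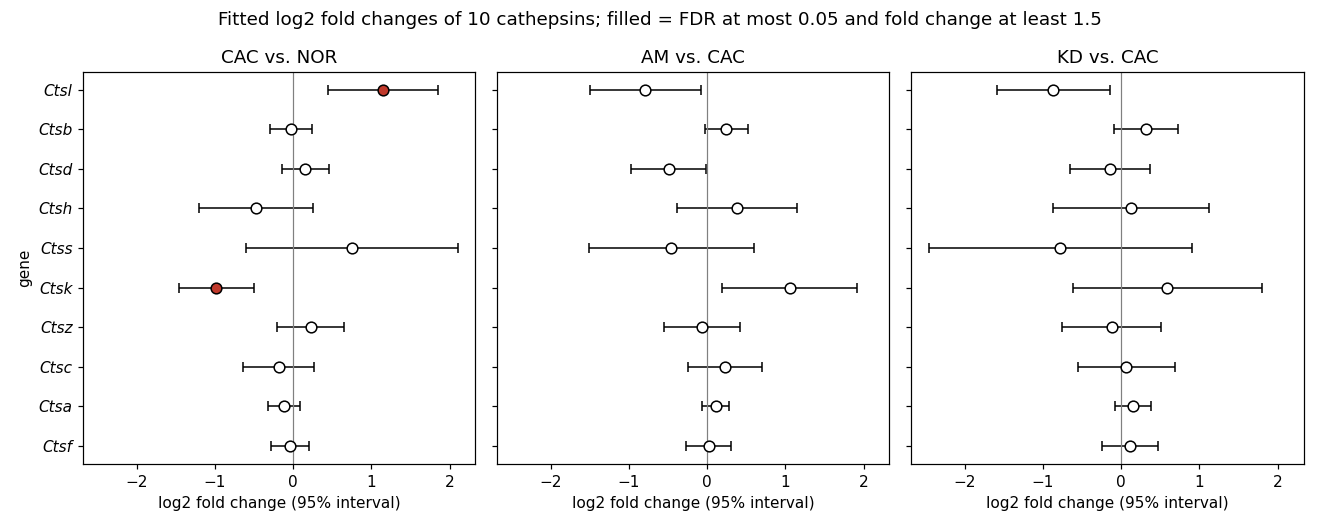
Fitted log2 fold changes of the 10 cathepsins with 95% intervals for CAC against NOR, AM against CAC and KD against CAC, filled where FDR was at most 0.05 and the change at least 1.5-fold in either direction. Only Ctsl (1.15) and Ctsk (-0.98) in CAC vs. NOR are filled.

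Set against all genes, the family's count in CAC vs. NOR was 1 member with a rise and 1 with a fall out of 10. A gene was called at an FDR up to 0.05 with a change of 1.5-fold or more upward, or to 0.667-fold or less, and 4.32% of the 14666 genes tested rose and 5.13% fell. Of these calls 45.7% were upward after TMM normalization and 60.8% after scaling by total counts, which moved the median of all genes from 0.01 to 0.14 on the log2 scale. With total counts Ctsl (1.27) was still called and Ctsk (-0.84) was not. Groups were fully apart for 1 member upward and 1 downward, against 12.5% and 10.8% of all genes. The median log2 fold change was -0.04 over the 10 members and 0.01 over all genes. No member was called in AM vs. CAC (1.63% of all genes rose and 2.03% fell, with 44.5% of calls upward after TMM and 54.6% after upper-quartile scaling), and no member was fully apart (6.05% of all genes above, 9.27% below). At an unadjusted p under 0.05, 3 members (Ctsl, Ctsd and Ctsk) and 21.7% of all genes passed there with edgeR, and DESeq2 called 1 member upward, beside 4.48% of all genes. In KD vs. CAC no member was called by either tool, against 0.00685% of all genes in edgeR and 2.33% in DESeq2, and only Ctsl had an unadjusted p under 0.05, beside 11.1% of all genes. Ctsa was fully apart upward (3.71% of all genes above, 3.58% below).

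The 3 remaining comparisons gave no call either. For AM and KD against NOR, and for AM against KD, edgeR called 0 members and 0% of all genes, DESeq2 called 0 members beside 0.476%, 0.211% and 0.00681% of all genes, and 1, 1 and 0 members had an unadjusted p under 0.05, beside 9.19%, 3.54% and 1.11% of all genes. The member was Ctsl in both cases. No member was fully apart in AM vs. NOR (2.29% of all genes above, 2.82% below), and Ctsl was apart upward in KD vs. NOR (1.31% above, 0.949% below). AM and CAC, KD and CAC, and CAC and NOR share the CAC mice, so the values of these comparisons are not independent.

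Among the other endopeptidases, Ctsd differed little between NOR and CAC. Its level was 779.5, 725.6, 755.2 and 740.4 CPM in NOR and 902.3, 846.7, 911.1 and 683.8 CPM in CAC mice, and 3 CAC mice lay above all NOR mice. The log2 fold change was 0.15 ± 0.13 (SE, edgeR, FDR = 0.496), and 0.24 without CAC 4 (edgeR, FDR = 0.224). In AM mice Ctsd was at 415.7, 743.8, 489.8 and 728.7 CPM, a low pair (AM 1 and AM 3) and a pair at the NOR level. AM vs. CAC gave -0.49 ± 0.21 (SE, edgeR, FDR = 0.220), with an interval of -0.98 to -0.01. KD mice spread over much of the whole range, at 486.6, 932.2, 861.9 and 757.5 CPM, and KD vs. CAC gave -0.14 ± 0.23 (SE, edgeR, FDR = 0.890). Ctsf, a lysosomal cysteine protease, stayed between 30.2 and 49.3 CPM over the 16 mice, and its CAC vs. NOR interval of -0.29 to 0.20 on the log2 scale was narrow.

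Ctss encodes cathepsin S, which trims the invariant chain of MHC class II. It had the widest range of the family, 26.7-fold between KD 3 and CAC 3. It was at 7.6, 41.3, 47.3 and 49.0 CPM in NOR, 33.3, 48.6, 119.1 and 38.3 CPM in CAC, 63.0, 47.6, 23.2 and 41.6 CPM in AM, and 58.0, 20.4, 4.5 and 56.7 CPM in KD mice. All groups overlapped, and the spread within a group exceeded the differences between groups. CAC vs. NOR gave a log2 fold change of 0.75 ± 0.59 (SE, edgeR, FDR = 0.456), and 0.14 without CAC 3. With the summed B cell markers as a term in the fit, an analysis chosen after these values were seen, it was 1.41 and passed (edgeR, FDR = 0.0309), while the FDR of the other alternatives reached up to 0.888.

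The exopeptidases Ctsh, an aminopeptidase, Ctsc, a dipeptidyl peptidase that activates granule proteases of white blood cells, and Ctsz, a carboxypeptidase, varied in a similar way. Ctsh was at 20.7, 38.0, 34.0 and 35.1 CPM in NOR, 18.6, 25.8, 34.6 and 12.2 CPM in CAC, 35.5, 34.8, 19.1 and 29.5 CPM in AM, and 34.9, 17.9, 10.9 and 35.8 CPM in KD mice. The low mice of NOR, CAC and KD were the 5 with few B cell markers. Over those 5 libraries Ctsh was at 10.9 to 20.7 CPM, against 19.1 to 38.0 CPM in the other 11, and only AM 3 at 19.1 CPM overlapped. Ctsc was at 36.2 to 53.0 against 49.4 to 82.9 CPM. Ctsz was at 53.5 to 89.8 against 72.8 to 130 CPM, and Ctss at 4.47 to 38.3 against 23.2 to 119 CPM. These 3 genes overlapped more between the sets than Ctsh did. Macrophage markers, 12 in all and none at 0 in any library, also varied, with sums of 115 to 882 CPM in the 5 and 475 to 963 CPM in the other 11. The part of macrophages in these levels was not tested. That of B cells was not tested beyond the fits with their summed markers as a term or without the libraries low in them.

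**Figure D4:**
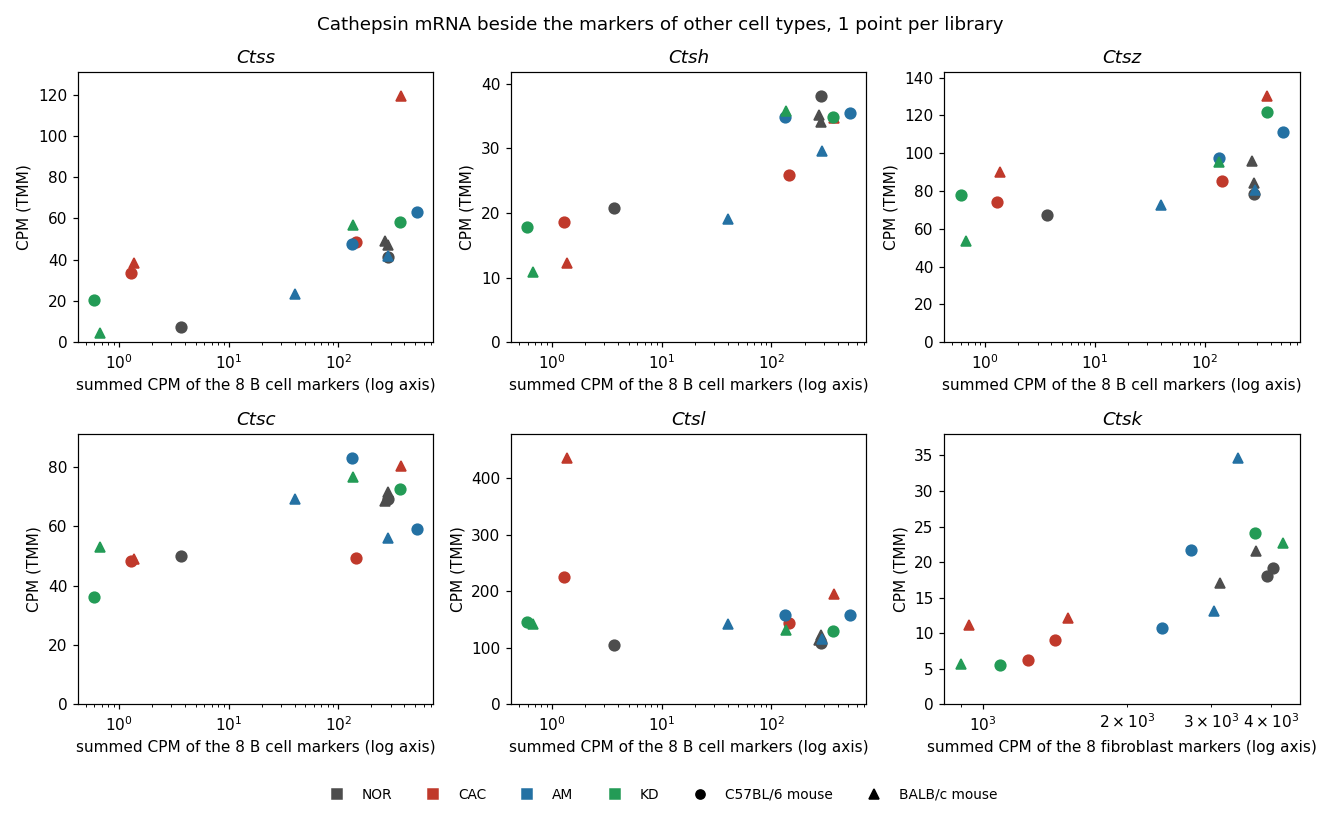
CPM of Ctss, Ctsh, Ctsz, Ctsc and Ctsl against the summed CPM of 8 B cell markers, and of Ctsk against the summed CPM of 8 fibroblast markers (log horizontal axes), 1 point per library, colored by group. In the B cell panels 5 libraries lie at the left, at 0.596 to 3.65 CPM, and Ctsh is at most 20.7 CPM in them.

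None of these 3 exopeptidases passed a test between groups. For CAC vs. NOR the log2 fold change was -0.47 ± 0.32 for Ctsh (SE, edgeR, FDR = 0.369), -0.18 ± 0.20 for Ctsc (SE, edgeR, FDR = 0.601) and 0.23 ± 0.19 for Ctsz (SE, edgeR, FDR = 0.481). Their intervals reached from -1.20 to 0.25, from -0.63 to 0.27 and from -0.20 to 0.66, so that a 1.5-fold change in 1 direction lay within each. These values rested in part on CAC 3, without which they were -0.76 for Ctsh, -0.41 for Ctsc and 0.030 for Ctsz. Ctsh was at -0.26 without CAC 4, and Ctsc at -0.11 without CAC 1 or CAC 4. For AM vs. CAC the values were 0.38, 0.23 and -0.07, and for KD vs. CAC 0.12, 0.06 and -0.12. All FDR values in these comparisons were at least 0.576 with edgeR. Another fit of CAC vs. NOR took the summed B cell markers as a term and was chosen after the data were seen. There Ctsh was at -0.24, Ctsc at -0.044 and Ctsz at 0.34 (edgeR, FDR = 0.307, 0.861 and 0.159).

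Ctsb encodes cathepsin B, a peptidase that acts inside chains and at their end. It was at 439.7, 427.1, 451.3 and 546.7 CPM in NOR, 433.5, 427.4, 462.2 and 501.2 CPM in CAC, 490.1, 642.2, 537.6 and 493.9 CPM in AM, and 678.5, 424.9, 544.8 and 631.3 CPM in KD mice. NOR and CAC covered nearly the same range. The log2 fold change was -0.03 ± 0.12 for CAC vs. NOR (SE, edgeR, FDR = 0.895), with an interval of -0.30 to 0.23, and 0.25 ± 0.12 for AM vs. CAC (SE, edgeR, FDR = 0.280). For KD vs. CAC it was 0.32 ± 0.18 (SE, edgeR, FDR = 0.557). Without AM 2, the highest AM mouse, the AM vs. CAC value was 0.16 (edgeR, FDR = 0.514).

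Ctsa encodes protective protein cathepsin A, which stabilizes the lysosomal enzymes of Glb1 and Neu1. It was the steadiest member, with all 16 mice between 91.5 and 116 CPM. In CAC mice it was at 99.4, 91.5, 94.3 and 100.5 CPM and in KD mice at 108.8, 100.6, 104.6 and 113.8 CPM. Each KD mouse was above each CAC mouse, by a log2 fold change of 0.15 ± 0.10 (SE, edgeR, FDR = 0.648, exact permutation p = 0.0286), less than the 1.5-fold limit. In 60 exact permutation tests (10 genes, 6 comparisons) the smallest possible p of 0.0286 was reached by Ctsl and Ctsk in CAC vs. NOR, by Ctsa in KD vs. CAC and by Ctsl in KD vs. NOR, before any adjustment.

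Of 13 other cathepsins listed, only Ctso, Ctsw and Ctse passed the count filter in CAC vs. NOR. Ctso was at 19.9 ± 3.36 CPM in NOR and 16.7 ± 2.91 in CAC mice (SD, n = 4, log2 fold change -0.25, edgeR FDR = 0.364). Ctsw, a gene of T and NK cells, was at 3.29 ± 2.55 and 2.32 ± 2.91 CPM (edgeR FDR = 0.878), and Ctse at 1.47 ± 0.998 and 1.58 ± 0.683 CPM (edgeR FDR = 0.943). In AM mice Ctse was at 29.0, 3.11, 11.2 and 1.70 CPM and in KD mice at 27.4, 1.32, 0.186 and 4.38 CPM, with AM 1 and KD 1 the highest of their groups. The log2 fold change of Ctse was 2.84 ± 0.86 for AM vs. CAC (SE, edgeR FDR = 0.0983) and 2.40 ± 1.21 for KD vs. CAC (SE, edgeR FDR = 0.510). With Ctsg, 4 other cathepsins were tested against CAC, none was called, and their median log2 fold change was 1.46 in AM and 1.15 in KD mice. Ctsj, Ctsm, Ctsq, Ctsr, Cts3, Cts6, Cts7, Cts8 and Ctsll3, cathepsins known mainly from the rodent placenta, had 0 counts in all 16 libraries, and Ctsg did not pass the filter in CAC vs. NOR. A count of 0 allows up to 3 counts, at most 0.0847 CPM in a library.

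Of the inhibitors of cathepsins, 3 of 6 tested rose in CAC vs. NOR and none fell (4.32% and 5.13% of all genes), with a median log2 fold change of 0.55 against 0.01 over all genes. Ctla2a, whose product resembles the propeptide of cysteine cathepsins, was at 13.8 ± 2.58 CPM in NOR and 57.3 ± 18.7 CPM in CAC mice (SD, n = 4, log2 fold change 2.05 ± 0.23 SE, edgeR FDR = 0.00272). Its relative Ctla2b rose by 0.88 ± 0.24 from a low level of 2.12 CPM (log2, SE, edgeR FDR = 0.0436). Cst6, cystatin E/M, rose from 16.3 ± 2.06 to 25.7 ± 3.13 CPM (SD, log2 fold change 0.65 ± 0.14 SE, edgeR FDR = 0.0214). Between AM and CAC mice 1 of 7 fell, beside 2.03% of all genes, Cst6 by 1.19 on the log2 scale (edgeR FDR = 0.00937), with Ctla2a at -1.12 ± 0.30 (SE, edgeR FDR = 0.0690). In KD vs. CAC none of 7 passed, with Cst6 at -0.68 ± 0.38 and Ctla2a at -0.78 ± 0.45 (SE, edgeR FDR = 0.554 and 0.561).

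The remaining lysosomal lists are read beside the 4.32% of all genes that rose and the 5.13% that fell in CAC vs. NOR. Among membrane proteins 1 of 14 rose and 1 fell. The tetraspanin gene Cd63 rose from 104 ± 7.14 to 161 ± 6.91 CPM (SD, n = 4, log2 fold change 0.62 ± 0.08 SE, edgeR FDR = 0.00387), and Laptm4b fell from 41.0 ± 3.15 to 24.4 ± 3.41 CPM (log2 fold change -0.76 ± 0.12 SE, edgeR FDR = 0.00663). In AM vs. CAC Cd63 was at -0.58 ± 0.09 (SE, edgeR FDR = 0.0123), just under the fold limit, and Laptm4b at 0.48 ± 0.15 (SE, edgeR FDR = 0.114). In KD vs. CAC they were at -0.53 ± 0.15 and 0.66 ± 0.13 (SE, edgeR FDR = 0.293 and 0.231).

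The V-ATPase is the pump that acidifies the lysosome, and 1 of 19 subunit genes rose, Atp6v1h, from 19.1 ± 1.23 to 37.6 ± 14.6 CPM (SD, log2 fold change 0.98 ± 0.23 SE, edgeR FDR = 0.0292). Among 35 other hydrolases Gaa, the acid glucosidase that degrades glycogen, rose from 367 ± 49.8 to 587 ± 77.9 CPM (SD, log2 fold change 0.67 ± 0.15 SE, edgeR FDR = 0.0250). Gaa fell in AM vs. CAC (-0.93 ± 0.17 SE, edgeR FDR = 0.0238) and was at -0.65 ± 0.34 in KD vs. CAC (SE, edgeR FDR = 0.522). Atp6v1h was at -0.85 ± 0.24 and -0.65 ± 0.27 in these comparisons (SE, edgeR FDR = 0.0787 and 0.419). None of 11 sorting genes, 5 regulators including Tfeb, or 4 activation and complex partners was called in CAC vs. NOR. Of the lysosomal lists 7 genes had an edgeR FDR of 0.05 or less but missed the 1.5-fold limit, and they are named here after their values were seen. Higher in CAC mice were Lamp2 (log2 fold change 0.52), Lipa (0.54), Lgmn (0.50), Gga1 (0.47) and Gnptg (0.39), and lower were Aga (-0.56) and Ostm1 (-0.41). Over all 14666 genes tested, 2048 had an FDR of 0.05 or less, of which 1386 met the fold limit. Of the 7 genes all but Lipa were fully apart between the groups (12.5% of all genes above, 10.8% below). They were picked by FDR in this same comparison, so this adds no support. The median log2 fold changes of the lysosomal lists other than the inhibitors and the other cathepsins lay between -0.0015 and 0.16.

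Between AM and CAC mice 1 of the 35 hydrolases rose and 2 fell, beside 1.63% and 2.03% of all genes, and none of the genes for sorting, regulators, partners, membrane or V-ATPase was called. In KD vs. CAC no lysosomal gene of these lists passed edgeR's test, where 1 of 14593 genes did.

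**Figure D5:**
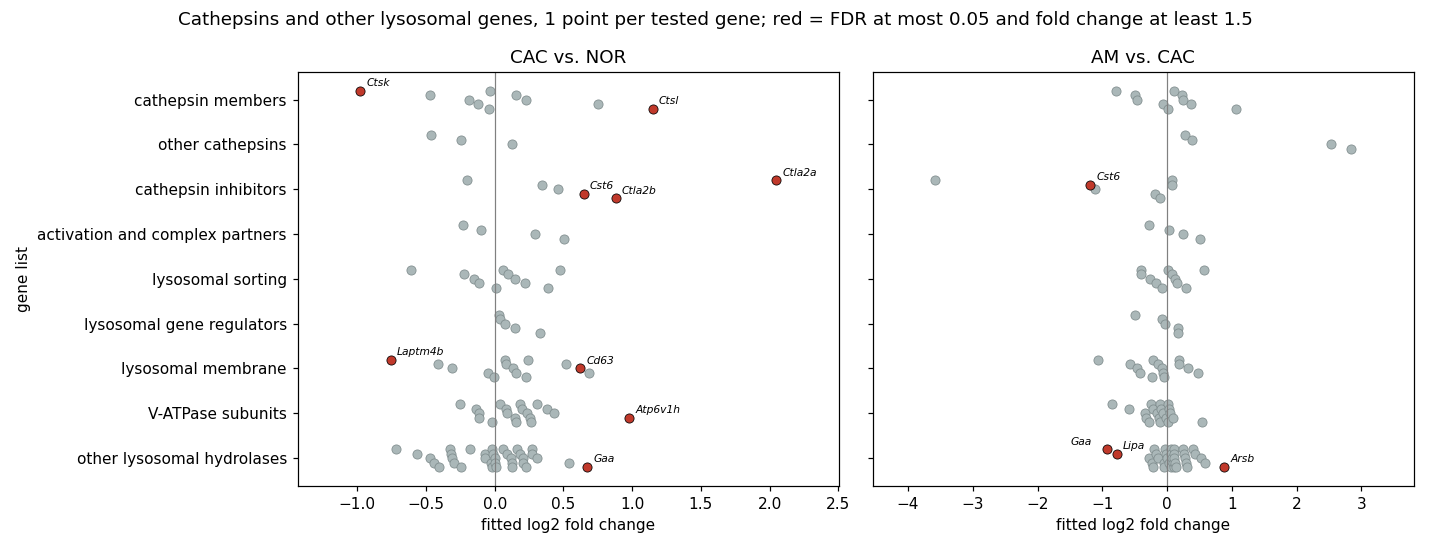
Fitted log2 fold changes of the cathepsins and of the listed inhibitors, partners and other lysosomal genes in CAC vs. NOR and AM vs. CAC, 1 point per tested gene, red and named where called. In CAC vs. NOR 3 inhibitors are red on the right, with Ctla2a farthest out at 2.05, and 2 of the 10 cathepsins are red on opposite sides.

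Likeness of other genes to a member was described by Pearson's r of log2 CPM over the same 16 libraries among 13196 genes with a mean of at least 1 CPM. The 5 genes most like Ctsl were Stat3 (r = 0.95), Shroom3 (0.94), Atp6v1h (0.93), Fam71e1 (0.91) and Cyyr1 (0.91). Those most like Ctss were Slfn1, Gpr65, Cd53, Mpeg1 and AB124611, with r from 0.96 to 0.97, and Cd53 and Mpeg1 are known from white blood cells. Those most like Ctsk, looked up after its values were seen, were Colec12, Gxylt2, Spon1, Mmp2 and Col6a6, with r from 0.88 to 0.91, of which Mmp2 encodes a matrix protease and Col6a6 a collagen chain. Within the family Ctss was most like Ctsz (r = 0.88) and Ctsh (r = 0.73), while Ctsf ran against Ctsz (r = -0.76) and Ctss (r = -0.75), and Ctsd against Ctsk (r = -0.72). Ctsl had r between -0.49 and 0.18 with the other 9. The points share library, depth and tissue makeup, so these values are descriptions.

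The strains were also set side by side. The interaction of strain with group passed for no member in these 3 comparisons (CAC with NOR, AM with CAC and KD with CAC), and for 0 genes in all (edgeR, smallest FDR of a member 0.349, for Ctsz in AM vs. CAC). With 2 mice per strain and group only large differences could be seen. For Ctsz the difference of mean log2 CPM AM vs. CAC was 0.39 in C57BL/6 and -0.50 in BALB/c mice, and for Ctss it was 0.44 and -1.12. For Ctsl in CAC vs. NOR it was 0.75 and 1.31.

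Positions from GENCODE M21 (GRCm38) put Ctsl at chr13:64359337-64370890 on the minus strand and Ctsk at chr3:95499256-95509362 on the plus strand, upstream of Ctss (chr3:95526786-95556403, plus strand). Ctsd lies at chr7:142375911-142388038 on the minus strand. Of the exonic bases of Ctsl 26.8% overlap other genes, mostly the antisense gene Gm47123, and of those of Ctsd 34.4% overlap Gm49369 on the same strand. In Ctsa the share was 17.4% (Pltp and Neurl2, other strand), in Ctsb 12.8% (Fdft1, other strand), in Ctsz 0.694%, and in the other 5 members 0. How the authors' counting treated such bases and whether it used strand is not stated in the sources used here, so the values of Ctsl, Ctsd, Ctsa and Ctsb may hold reads of their neighbours.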

How the data were processed

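Messenger RNA of the gastrocnemius of 16 mice was enriched with oligo(dT) beads and sequenced on an Illumina instrument. The submitters' processing notes name fastp, Bowtie2, HISAT2 and StringTie 1.3.1, and the builds mm9 and GRCm38, without saying which step used which. The authors deposited read counts per gene that were not normalized, and FPKM values that go with these counts and 1 length per gene (on 2467 genes checked, that length differed between libraries by no more than 0.0458%). Each column was assigned to its mouse by name. Totals were 35913190 to 61032708 counts.

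The counts were tested with edgeR 4.0.16 in R 4.3.3 (TMM, filterByExpr with min.count 10 and min.total.count 15, quasi-likelihood F test), using for each pair of groups its own 8 libraries, with Benjamini-Hochberg FDR over all genes tested. NOISeq, the authors' tool, was not used. Genes were called at FDR up to 0.05 when the change was 1.5-fold or more upward or reached 0.667-fold or less. The SE is the log2 fold change divided by the square root of F. Exact two-sided permutation tests were run on CPM, and FPKM values were only described. Log2 CPM for likeness used a prior count of 2. Alternatives were RLE, upper-quartile and total-count scaling, other count filters, no fold limit, DESeq2 1.42.0, limma-voom (limma 3.58.1), strain or a replicate block as a term, 1 fit of all 16 libraries, each strain alone and leaving out each mouse. Leaving out the libraries with B cell markers under 10 CPM, or adding those markers as a term, was chosen after the data were seen. The edgeR step was tested on simulated data.

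The 10 members, the gene lists, the markers and the motifs were chosen with earlier results of these data known. All members are named with their values, and of each lysosomal list at most the 3 called genes with the largest change in CAC vs. NOR, to which the 7 lysosomal genes that missed only the fold limit there, Ctse in AM and KD mice and the genes most like Ctsk were added after their values were seen. Tmem55b and Trac are not analysed here. Positions, overlaps and figures were made with Python 3.11.15 and matplotlib 3.10.9 from GENCODE M21 (GRCm38) and RefSeq promoters (GRCm38.p6). Ctsb and Ctsh had no promoter window. Whether the counting used strand is not given in the sources used here, and the authors' pathway and ontology columns were not used. Nothing in the labels ties mice to separate litters or cages, so p-values measure the spread between these mice.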

Additional observations from a re-analysis of the deposited data

Results flagged for a closer look

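The level of Ctsc stood out in 1 mouse of each of 2 groups, where the gap to the nearest mouse exceeded Dixon's 95% critical value for 4 samples. In NOR mice Ctsc was at 50.1 CPM in NOR 1, against 68.4 to 71.6 CPM in the other 3 mice. NOR 1 was the NOR library with few B cell markers, and its summed macrophage markers, at 235 CPM, were the lowest of the NOR mice. In CAC mice Ctsc was at 80.3 CPM in CAC 3, against 48.3 to 49.4 CPM in the other 3. CAC 3 had the most B cell markers of the CAC mice, at 372 CPM, and also the highest Ctss of all 16 mice, at 119 CPM. Of 40 groups (10 genes in 4 groups) 2 were past the critical value, and chance alone would give about 1 in 20.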

How the results depend on the processing

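Of 660 values of the 10 members in 3 comparisons (CAC with NOR, AM with CAC and KD with CAC, 22 alternatives for each of 30 results), 604 kept direction and call, 17 lost the call, 2 gained it and 37 turned sign, the last in 13 results that had no call. The causes were not tested unless given. In CAC vs. NOR, where 2 members were called, 1 was called with total-count scaling, with the replicate block and with all 16 libraries in 1 fit, and 0 were called in C57BL/6 mice only, in BALB/c mice only (fewer mice in each) and without the libraries with B cell markers under 10 CPM. Leaving out 1 mouse gave 0 to 2. With the B cell markers as a term 2 were called, but these were Ctss and Ctsk, not Ctsl. In AM vs. CAC, with 0 called, DESeq2 called 1.

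The replicate numbers, which also carry the strain, were not taken to pair the samples, since not every same-numbered pair deviated together. In CAC vs. NOR the correlations were 0.68, 0.18, 0.41 and -0.24 for replicates 1 to 4, and only CAC 1 correlated best with its own number. Over all comparisons they ran from -0.70 to 0.68. With the replicate block Ctsl was at 1.02 in CAC vs. NOR (FDR = 0.0674), the calls over all genes changed from 1386 to 1140 in CAC vs. NOR, from 537 to 0 in AM vs. CAC and from 1 to 0 in KD vs. CAC, and no other call of a member changed.

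Several log2 fold changes turned sign. In CAC vs. NOR, total-count scaling gave 0.095 for Ctsb, 0.010 for Ctsa and 0.079 for Ctsf, C57BL/6 mice only 0.062 for Ctsf, and leaving out 1 mouse -0.078 to 0.042 for Ctsb and -0.11 to 0.015 for Ctsf. In AM vs. CAC, Ctsh was at -0.044 without the libraries low in B cell markers and at -0.033 with those markers as a term, C57BL/6 mice only gave 0.45 for Ctss, 0.40 for Ctsz and -0.14 for Ctsf, BALB/c mice only -0.079 for Ctsc, and total-count scaling -0.036 for Ctsf. Leaving out 1 mouse there gave -0.70 to 0.14 for Ctss, -0.20 to 0.14 for Ctsz and -0.099 to 0.078 for Ctsf. In KD vs. CAC, BALB/c mice only gave -0.026 for Ctsh and -0.022 for Ctsc, C57BL/6 mice only 0.35 for Ctsz and -0.11 for Ctsf, and total-count scaling -0.046 for Ctsc and -0.016 for Ctsf. Leaving out 1 mouse gave -0.27 to 0.016 for Ctsd, -0.11 to 0.41 for Ctsh, -0.34 to 0.091 for Ctsz, -0.079 to 0.31 for Ctsc and -0.032 to 0.20 for Ctsf.

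Over all genes the calls moved by more than 1.5 times with DESeq2 (1120 against 537 in AM vs. CAC, 332 against 1 in KD vs. CAC, and 70, 31 and 1 against 0 for AM with NOR, KD with NOR and AM with KD), in C57BL/6 mice only (247 against 1386 in CAC vs. NOR), in BALB/c mice only (0) and without the libraries low in B cell markers (398). For AM vs. CAC they were 0 in either strain alone, 339 with strain as a term, 231 with all 16 libraries in 1 fit and 18 without those libraries, and in KD vs. CAC 145 with all 16 libraries in 1 fit, 2 with the B cell markers as a term and 0 or 1 otherwise. Leaving out 1 mouse gave 728 (NOR 3), 808 (NOR 2) and 922 (CAC 1) in CAC vs. NOR and 212 (without CAC 1) to 447 (without CAC 4) in AM vs. CAC. AM vs. NOR had 14 calls without AM 4 and 3 in BALB/c mice only, and KD vs. NOR had 1 without KD 1. Each member had at least 220 counts in each library. The limits are 4 mice per group and the spread between them.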
